A study of Mus musculus with 40 samples.

Results

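A group of 10 heat shock chaperone genes was followed in CD11b+ cells sorted from mouse brains bearing experimental gliomas. They form a list of named genes that was drawn up with earlier results of these data known, and they are 10 of the 54513 gene rows held by each of 3 expression tables. Hspa1a, Hspa1b, Hsph1, Dnajb1, Bag3 and Hsp90aa1 were described as the 6 inducible chaperones, Hspa8 and Hsp90ab1 as the 2 constitutive ones. Hspd1 and Hspe1 were on the same list of names, but they encode the chaperonin of the mitochondrial matrix and its lid, so they were kept as 2 mitochondrial members and not called cytosolic. All 10 passed the filter of a mean of at least 1 RPKM (reads scaled by transcript length and by library size) in every table.

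Chaperones hold unfolded proteins and return them to their native shape. In resting cells the heat shock factor HSF1 is kept inactive, and when unfolded proteins accumulate it trimerises and binds heat shock elements, which are short inverted repeats of the bases GAA. The inducible HSP70 genes Hspa1a and Hspa1b are the classical targets, while HSC70 (Hspa8) and HSP90 beta (Hsp90ab1) are abundant in unstressed cells and do the housekeeping share of the work. J-domain proteins such as Dnajb1 deliver clients to HSP70, and Hsph1 and Bag3 are nucleotide exchange factors that make HSP70 let go of them.

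CD11b marks microglia and infiltrating monocytes, macrophages and other myeloid cells. GL261 cells (a mouse glioma line carrying tdTomato and luciferase) were implanted into the brain of male mice of 10 to 12 weeks, and U87-MG cells (a human glioma line with RFP) into athymic nude (Foxn1nu) mice. In the GL261 experiment at 21 days post-implantation (DPI), naive C57BL/6J mice were set beside tumor-bearing mice given water (vehicle), the integrin-blocking peptide 7aaRGD or the control peptide 7aaRAE through an osmotic pump into the tumor, with 3 samples a group and 2 animals pooled in each sample. In the GL261 experiment at 28 DPI, single mice received vehicle (n = 4), 7aaRGD (n = 4), anti-PD-1 antibody (n = 3) or both (n = 3), and mice without the antibody received control IgG. The labels of these mice read nude, whereas the methods of the study describe C57BL/6 hosts for GL261. The labels also list a sample 4 in the anti-PD-1 group and in the combination group. No values were found for either, so only 3 samples of each of these groups were analysed. The U87-MG experiment at 21 DPI held vehicle, 7aaRGD and 7aaRAE groups of 3 samples with 2 animals in each, and its naive mice were not analysed here. The names of its columns do not number the samples, so the letters a, b and c used below only tell columns apart. All tumor-bearing hemispheres were dissociated with collagenase IV and DNase I before sorting, and 35 samples in 11 groups were analysed in all.

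The 3 tables hold separate experiments and their normalization is not stated, so levels are set side by side between tables but tested only within one. Each sample had between 9864 and 10725 genes at 1 RPKM or more, and the read depth behind the values is unknown. All 12 homeostatic microglia markers were above 1 RPKM on average in each of the 11 groups, with summed levels of 18550 to 19280 RPKM in naive brain, 1523 to 3597 RPKM in all GL261 tumors and 7501 to 12790 RPKM in U87-MG tumors. RNA measured in bulk cannot tell fewer cells of a type from less RNA per cell.

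Promoters of 4 members are shown because Hspa1a, Hspa1b and Hsph1 had the largest differences between the combination and vehicle at 28 DPI and Hspe1 had the one closest to 0. RefSeq windows of 300 bases, from 250 bases before the transcription start to 50 bases after it (GRCm38.p6), were found for 7 of the 10 members. Capitals mark each match to GAANNTTC or TTCNNGAA, 2 inverted GAA units in either order, which overlap where 3 or more units follow each other. Both motifs read the same on either strand.
Hspa1a, chr17:34972107-34972406, minus strand: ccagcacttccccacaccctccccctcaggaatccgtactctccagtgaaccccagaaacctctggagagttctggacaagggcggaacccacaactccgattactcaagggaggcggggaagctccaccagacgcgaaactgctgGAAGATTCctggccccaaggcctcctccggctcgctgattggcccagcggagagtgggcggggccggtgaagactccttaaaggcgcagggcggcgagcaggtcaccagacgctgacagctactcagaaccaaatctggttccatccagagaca
Hspa1b, chr17:34959189-34959488, minus strand: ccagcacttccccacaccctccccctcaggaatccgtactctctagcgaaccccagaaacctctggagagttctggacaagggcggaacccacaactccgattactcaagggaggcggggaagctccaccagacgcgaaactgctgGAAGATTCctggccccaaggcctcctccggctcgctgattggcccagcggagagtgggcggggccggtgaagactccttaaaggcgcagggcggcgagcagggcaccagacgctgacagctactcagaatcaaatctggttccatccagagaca
Hsph1, chr5:149636266-149636565, minus strand: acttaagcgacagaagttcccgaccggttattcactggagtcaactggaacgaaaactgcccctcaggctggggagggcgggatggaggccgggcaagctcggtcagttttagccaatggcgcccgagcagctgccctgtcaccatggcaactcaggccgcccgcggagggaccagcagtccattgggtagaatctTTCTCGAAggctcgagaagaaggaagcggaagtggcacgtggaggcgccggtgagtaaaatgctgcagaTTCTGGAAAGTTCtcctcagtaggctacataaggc
Hspe1, chr1:55087898-55088197, plus strand: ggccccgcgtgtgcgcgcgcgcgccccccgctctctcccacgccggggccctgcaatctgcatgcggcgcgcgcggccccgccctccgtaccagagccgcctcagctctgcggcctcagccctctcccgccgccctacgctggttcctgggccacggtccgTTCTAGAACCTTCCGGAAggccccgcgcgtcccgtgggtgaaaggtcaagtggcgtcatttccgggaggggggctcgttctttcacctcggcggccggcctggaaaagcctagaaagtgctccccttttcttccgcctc
The Hspa1a and Hspa1b windows differed at 4 of 300 bases and hold 1 match each, which begins 104 bases before the start. The Hsph1 window shown holds 3 overlapping or separate matches in 2 stretches. Its longer stretch spans 3 alternating units over 13 bases and begins 15 bases after the start. A second Hsph1 window, shifted by 21 bases, holds the same matches, and there this stretch begins 36 bases after the start. The Hspe1 window shares 285 bases with a window of Hspd1, which is read from the other strand, and both contain the same run of 18 bases with 4 alternating units. Bag3 held 1 GAANNTTC match and the 2 Dnajb1 windows held none. At least 1 form was found in 7 of the 10 windows of these members (6 of the 7 members), and in 15.1% of all 32851 promoter windows. An array of 3 alternating units was found in 4 of the 10 member windows (Hsph1, Hspd1 and Hspe1, 3 of the 7 members) and in 0.603% of all windows. Several member windows overlap or are near copies, so they are not separate cases. These are matches of letters and not measured binding. Windows for Hspa8, Hsp90aa1 and Hsp90ab1 were not used here.

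The 2 HSP70 genes need a caution before their values. Hspa1a (chr17:34969190-34972156) and Hspa1b (chr17:34956436-34959238) are neighbouring, near-identical copies, and the authors kept only reads with a mapping quality of at least 10, so reads from the stretches they share may have been dropped or split. Their separate values are therefore uncertain, and they were also summed. A sum does not bring back dropped reads, so it may lie below the true level of both copies.

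The members spanned a wide range of levels per length. Hspa8 was measured between 214.3 and 687 RPKM over the 35 samples and Hsp90ab1 between 294.9 and 687.4 RPKM. Hsp90aa1 (HSP90 alpha, the inducible form) lay between 29.92 and 92.73 RPKM, and the chaperonin genes Hspd1 and Hspe1 between 24.12 and 57.43 RPKM and between 14.51 and 46.19 RPKM. Dnajb1 lay between 11.38 and 38.77 RPKM and Bag3 between 14.6 and 28.01 RPKM. Hsph1 ran from 1.87 to 18.7 RPKM. Hspa1a, from 0.48 to 49.6 RPKM, and Hspa1b, from 0.538 to 56.1 RPKM, had the widest relative ranges of the 10.

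**Figure D1:**
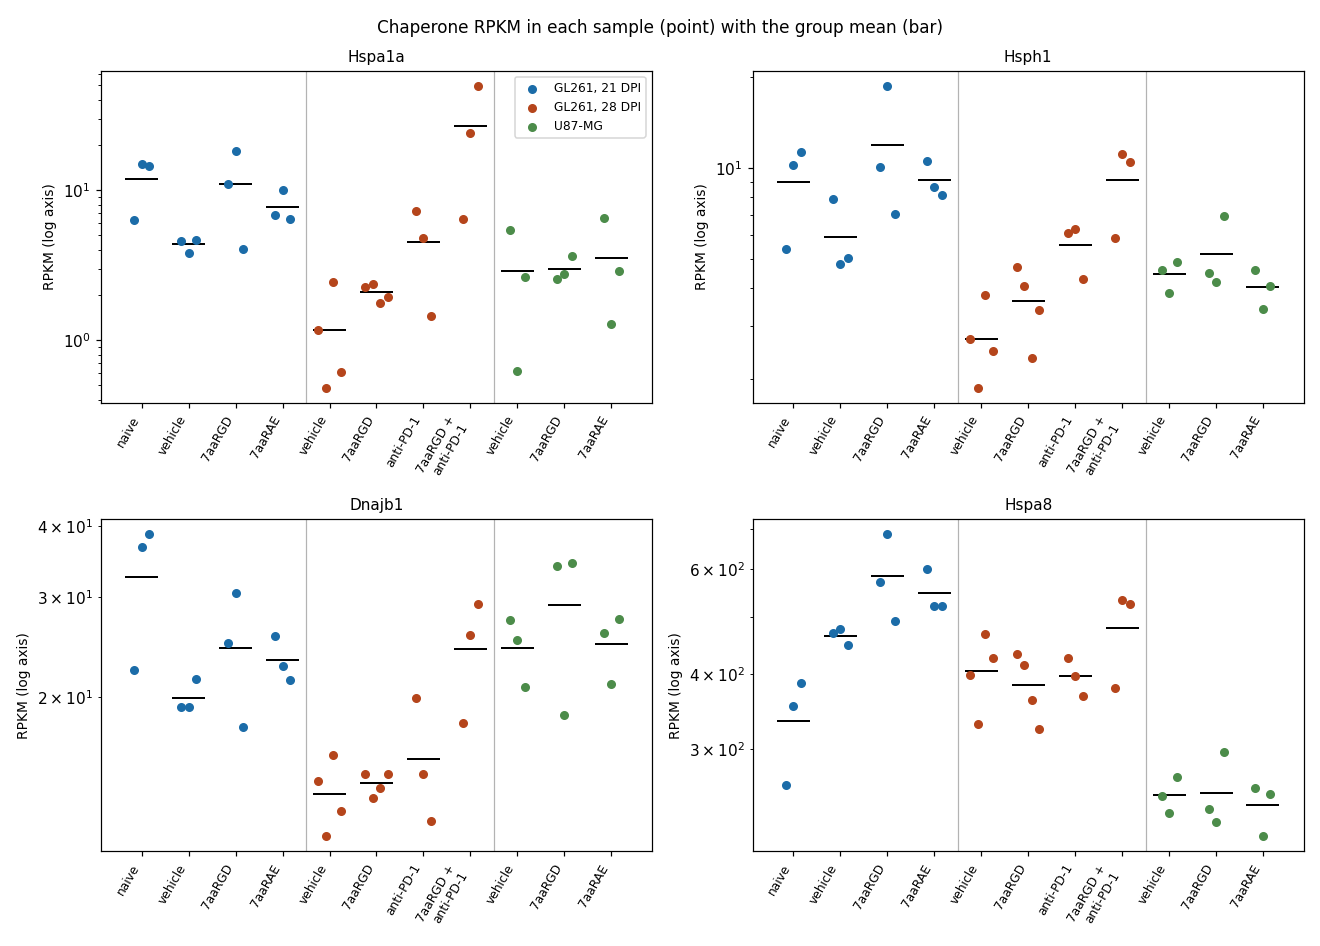
RPKM of Hspa1a, Hsph1, Dnajb1 and Hspa8 (log vertical axes) in each sample (points) of the 11 groups, with group means (bars) and colors for the 3 tables. Hspa1a was highest in combination samples 2 and 3 at 28 DPI (24.1 and 49.6 RPKM) and lowest in the vehicle group of the same table (0.48 to 2.43 RPKM), whereas Hspa8 stayed between 324 and 532 RPKM in that table.

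Vehicle-treated GL261 tumors at 21 DPI were first compared with naive brain, to ask how the chaperones of myeloid cells differ between a tumor and the healthy brain. The inducible HSP70 genes fell and the mitochondrial chaperonin genes rose. Hspa1a was 6.3, 14.9 and 14.4 RPKM in the 3 naive samples and 4.6, 3.79 and 4.66 RPKM in the 3 vehicle tumors, so that the groups did not overlap and naive sample 1 was the closest to the tumors. Its log2 difference was -1.19 ± 0.27 (SE; adjusted p = 0.00388, limma with Benjamini-Hochberg adjustment over all genes tested). Differences are on the log2(RPKM + 1) scale, which understates changes of genes at low levels. Fold differences given below are taken from them and are ratios of RPKM + 1, not of RPKM. Hspa1b was 9.28, 23.2 and 22.5 RPKM in naive brain against 5.74, 2.8 and 4.42 RPKM in the tumors, a log2 difference of -1.80 ± 0.34 (adjusted p = 0.00134, limma). The summed level of both copies was 15.6 to 38.1 RPKM in naive brain and 6.59 to 10.3 RPKM in the tumors.

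A pair of HSP70 partners fell as well. Dnajb1 was 22.3, 36.9 and 38.8 RPKM in naive brain and 19.2, 19.2 and 21.5 RPKM in the tumors (log2 difference -0.64 ± 0.19, adjusted p = 0.0119, limma). Bag3, which also guides clients to autophagy, was 22.1, 27 and 28 RPKM in naive brain and 17.7, 16.1 and 15.7 RPKM in the tumors (log2 difference -0.60 ± 0.09, adjusted p = 0.00043, limma). Naive sample 1 had the lowest value of its group in these genes, as it had in all 10 members. Hsph1 (HSP110) was 5.38, 10.2 and 11.3 RPKM in naive brain against 7.9, 4.8 and 5.03 RPKM, with overlapping groups and an adjusted p of 0.107. Hsp90aa1 differed by 0.01 on the log2 scale, with a 95% confidence interval from -0.27 to 0.30.

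The constitutive and mitochondrial members lay on the other side. Hspa8 was 261, 355 and 387 RPKM in naive brain and 469, 476 and 447 RPKM in the tumors (log2 difference 0.49 ± 0.14, adjusted p = 0.0095, limma). Hspe1 (HSP10) was 16.9, 18.3 and 19.2 RPKM against 37.6, 35.8 and 32 RPKM, a 1.89-fold difference (log2 difference 0.92 ± 0.08, adjusted p = 8.53e-06, limma). Hspd1 (HSP60) rose less, from 24.1, 29 and 32.7 RPKM to 36.7, 33.7 and 34.5 RPKM (log2 difference 0.29 ± 0.10, adjusted p = 0.0287, limma). The groups of all 3 genes did not overlap. Hsp90ab1 differed by 0.18 on the log2 scale, with a 95% confidence interval from -0.10 to 0.46.

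In all, 7 of the 10 members passed the threshold in this comparison, 3 higher and 4 lower in tumors, and the groups of the same 7 did not overlap. That count is close to the background, since 82.9% of the 9728 genes tested passed and 85.4% had groups that did not overlap. The median log2 difference of all genes was -0.14, and it became 0.01 when samples were rescaled by median-of-ratios factors. Under quantile normalization Hspa8 kept a log2 difference of only 0.03 (adjusted p = 0.873, limma) and Hspd1 one of 0.16 (adjusted p = 0.185, limma), so the calls of these 2 genes rest on the scaling, while those of Hspa1a, Hspa1b, Dnajb1, Bag3 and Hspe1 held under all 9 alternative settings. Hspd1 also lost its call without the filter on low values (adjusted p = 0.0706, limma) and without naive sample 1, naive sample 2 or vehicle sample 1 (adjusted p = 0.0672, 0.0602 and 0.0704, limma).

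The other chaperone lists split in the same comparison. Of the 12 chaperonin (TRiC) and prefoldin genes tested, which fold actin and tubulin, 8 rose and none fell, with a median log2 difference of 0.37. Pfdn1 had the largest difference of that list (23 ± 0.329 RPKM in tumors against 10.4 ± 0.694 RPKM in naive brain, SD, n = 3 each), followed by Tcp1, Pfdn5 and Cct2. Of 13 chaperones of the endoplasmic reticulum (ER), 10 fell and none rose, with a median of -0.29. Dnajb9 was the furthest, with 13 ± 0.513 RPKM in tumors against 30.1 ± 2.88 RPKM in naive brain (SD, n = 3 each), and Canx and Hsp90b1 (GRP94, the HSP90 of the ER) were also among them. HSP70 partners outside the members went both ways, 6 higher and 9 lower of 21 tested, and HSP90 co-chaperones did so too with 5 higher and 6 lower of 15. In these lists Dnaja4 fell from 5.91 ± 0.684 to 0.638 ± 0.0682 RPKM and Bag1 rose from 44.3 ± 5.66 to 94.7 ± 6.26 RPKM, while the HSP90 partner Fkbp4 fell from 52.2 ± 6.54 to 24.1 ± 1.68 RPKM (SD, n = 3 each). Hsf1 itself fell, from 5.71 ± 0.338 to 3.31 ± 0.0826 RPKM, the 1 call among 3 heat shock factor genes tested. Of the small heat shock proteins, 3 of 4 passed, Hspb11 and Cryab higher and Hspb3 lower. Of 12 other heat shock genes 8 rose and 2 fell, led by Gadd45b and Hmox1, which rose, and Rgs2, which fell.

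Cell type markers moved in the same samples. All 12 microglia markers fell and all 12 monocyte and macrophage markers rose from naive brain to tumor. The summed monocyte list went from 44.9 to 47.1 RPKM in naive brain to between 2566 and 3375 RPKM in vehicle tumors, and Vcan was the 1 marker of that list under 0.1 RPKM in naive brain. Of 18 immediate early genes, transcripts that respond within minutes to many stimuli, 13 rose and 2 fell, and their summed level was 1689 to 1855 RPKM in naive brain against 4003 to 5313 RPKM in tumors. Of 10 neutrophil markers 1 rose and 7 fell, and their summed level was 428 to 554 RPKM in naive brain against 138 to 280 RPKM in tumors. The NK and T cell list summed to 0.697 to 1.72 RPKM against 10.1 to 31.5 RPKM, with both tested markers (Gzmb and Gzma) higher in tumors. Of 6 oligodendrocyte-lineage and glioma markers 4 rose and 1 fell. The part of these markers in the chaperone differences was not tested.

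**Figure D2:**
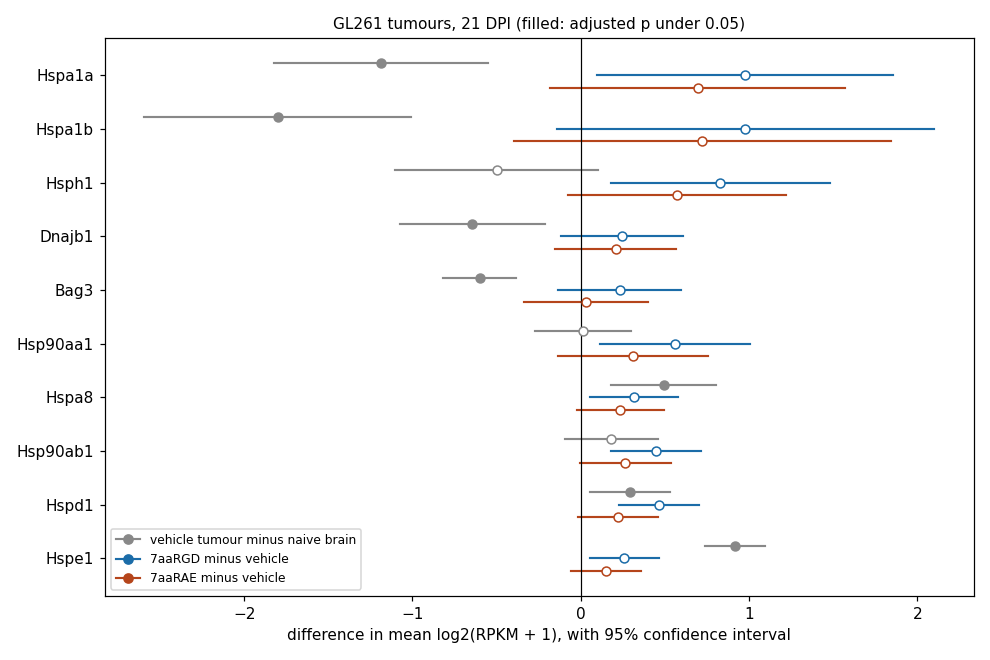
Differences in mean log2(RPKM + 1) with 95% confidence intervals for the 10 members in GL261 tumors at 21 DPI, for vehicle tumors minus naive brain and for each peptide minus vehicle; filled points passed an adjusted p of 0.05. Vehicle tumors lay below naive brain in Hspa1a, Hspa1b, Dnajb1 and Bag3 and above it in Hspa8, Hspd1 and Hspe1, and both peptides lay above vehicle in all 10 members without a member passing.

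Next, 7aaRGD was compared with vehicle in the same GL261 experiment, which asks what blocking integrins does to the myeloid cells of the tumor. No member passed the adjusted threshold, although all 10 had a higher mean with 7aaRGD. The smallest adjusted p was 0.148 (Hspd1, limma), and 0.148% of 9441 genes passed. At an unadjusted p under 0.05, 7 members were higher and none lower, against 13.6% of all genes in either direction, and 57.7% of all genes had a log2 difference above 0. The groups of Hspa8, Hsp90ab1, Hspd1 and Hspe1 did not overlap, as was the case for 17.6% of all genes.

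The spread among the 7aaRGD samples was wide and had the same order in all 10 members. Hspa1a was 10.9, 18.2 and 4.05 RPKM with 7aaRGD against 4.6, 3.79 and 4.66 RPKM with vehicle, so sample 2 lay above each naive sample while sample 3 lay within the vehicle range. Hspa1b was 10, 21 and 3.38 RPKM, with sample 2 below naive samples 2 and 3, and Hsph1 was 10.1, 18.7 and 7.02 RPKM against 7.9, 4.8 and 5.03 RPKM. 7aaRGD sample 2 had the highest value of its group in all 10 members, and sample 3 had the lowest in all 10.

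The other members gave smaller differences with tighter values. Hsp90aa1 was 65.7, 92.7 and 48.4 RPKM with 7aaRGD and 50.4, 38.6 and 46.6 RPKM with vehicle. Hspa8 was 572, 687 and 491 RPKM against 469, 476 and 447 RPKM, a 1.25-fold difference (95% confidence interval 1.04 to 1.49, adjusted p = 0.295, limma). Hsp90ab1 was 581, 687 and 470 RPKM against 438, 407 and 415 RPKM (1.36-fold, interval 1.13 to 1.64, adjusted p = 0.195, limma). Hspd1 was 48.4, 57.4 and 41.5 RPKM against 36.7, 33.7 and 34.5 RPKM, which gave the smallest adjusted p of the members. In these last 3 genes each 7aaRGD sample lay above each vehicle sample. Without 7aaRGD sample 2 the log2 difference of Hspa1a went from 0.98 to 0.54 and that of Hspa1b from 0.98 to 0.42, and without sample 3 they became 1.51 and 1.59. No member passed in any of these fits.

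With the control peptide 7aaRAE the differences from vehicle were smaller in each member, and none passed. All 10 members had a higher mean than vehicle, and the groups of 7 of them did not overlap, against 12.6% of all genes. No member reached an unadjusted p of 0.05, which 601 of the 9441 genes (6.37%) did, and 0% of genes passed the adjusted threshold in limma. Hspa1a was 6.8, 10.1 and 6.45 RPKM with 7aaRAE, a log2 difference of 0.70 with a 95% confidence interval from -0.18 to 1.57. Hsph1 was 10.5, 8.67 and 8.15 RPKM, a difference of 0.57 with an interval from -0.08 to 1.22. The smallest unadjusted p of the 10 was 0.053, for Hsp90ab1, at an adjusted p of 0.718 (limma).

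The peptides share their delivery and differ in the integrin-binding motif, in which glycine and aspartate are exchanged for alanine and glutamate. This pair was compared once in each of 2 experiments at the same concentration. At 21 DPI in GL261 tumors the log2 differences of 7aaRGD minus 7aaRAE ran from 0.04 (Dnajb1) to 0.28 (Hspa1a), all above 0, and none of the groups separated. The interval for Hspa1a was -0.60 to 1.16 and that for Hspa8 -0.18 to 0.34, so the interval of Hspa1a still includes differences above 2-fold. Hspd1 was the 1 member with an unadjusted p under 0.05 (0.0428, adjusted p = 0.895, limma), against 521 genes (5.52%), and 0% of genes passed the adjusted threshold. The comparisons of each peptide with vehicle share the vehicle samples.

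Other chaperone lists were counted for 7aaRGD against vehicle at 21 DPI. None of them held a gene past the adjusted threshold. At an unadjusted p under 0.05, 9 of 15 HSP90 co-chaperones were higher and none lower, with Fkbp4 at 35.3 ± 3.76 against 24.1 ± 1.68 RPKM and Stip1, which hands clients from HSP70 to HSP90, at 68.3 ± 14 against 48.3 ± 3.75 RPKM (SD, n = 3 each). At the same threshold 5 of 12 chaperonin and prefoldin genes and 6 of 13 ER chaperones were higher and none lower, while 2 of 19 HSP70 partners were higher and 1 lower. Of the small heat shock proteins, Cryab (4.53 ± 0.717 against 2.01 ± 0.519 RPKM) was the 1 of 4 at that threshold. The median log2 difference of the HSP90 co-chaperones was 0.19, beside 0.02 over all genes. Of 19 immediate early genes 2 were higher and 1 lower at that threshold, with a median of 0.01. Of the cell type lists, 7 of 12 microglia markers, 4 of 7 NK and T cell markers and 4 of 9 oligodendrocyte-lineage and glioma markers were higher with 7aaRGD at the unadjusted threshold, and 2 of 12 monocyte markers were lower. The summed microglia list was 2300 to 3071 RPKM with 7aaRGD against 1523 to 2219 RPKM with vehicle, and the summed NK and T cell list was 29.5 to 73.6 RPKM against 10.1 to 31.5 RPKM. The part of these cells in the chaperone values was not tested.

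The largest differences of the members were measured at 28 DPI, where anti-PD-1, an antibody that blocks an inhibitory receptor of T cells, was given with or without 7aaRGD. The combination was compared with vehicle first. Hspa1a was 6.43, 24.1 and 49.6 RPKM with the combination and 1.17, 0.48, 2.43 and 0.608 RPKM with vehicle. The groups did not overlap, and combination sample 1 was the closest to vehicle while sample 3 was the furthest. This was a 10.3-fold difference in RPKM + 1 (95% confidence interval 4.64 to 22.9, log2 difference 3.37 ± 0.53, adjusted p = 0.000274, limma). The mean RPKM itself was 26.7 with the combination and 1.17 with vehicle, a wider ratio. Hspa1b was 7.64, 29.7 and 56.1 RPKM against 0.992, 0.538, 2.74 and 0.884 RPKM, an 11.5-fold difference (interval 5.18 to 25.4, adjusted p = 0.000201, limma).

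Of the HSP70 partners, Hsph1 and Dnajb1 rose. Hsph1 was 5.85, 11.1 and 10.4 RPKM with the combination against 2.71, 1.87, 3.79 and 2.48 RPKM with vehicle (2.69-fold, interval 1.91 to 3.78, adjusted p = 0.000289, limma). Dnajb1 was 18, 25.8 and 29.2 RPKM against 14.2, 11.4, 15.8 and 12.6 RPKM (1.72-fold, interval 1.34 to 2.21, adjusted p = 0.00216, limma). In both genes the groups were separate and combination sample 1 was the lowest of its group. Bag3 was 16.8, 20.8 and 20.1 RPKM against 14.6, 15.8, 17.6 and 17.9 RPKM, with overlapping groups and an adjusted p of 0.0769.

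Both HSP90 genes rose. Hsp90aa1 was 43.7, 55 and 65.3 RPKM with the combination against 32.3, 29.9, 42.9 and 33.2 RPKM (1.56-fold, interval 1.22 to 1.99, adjusted p = 0.00661, limma). Hsp90ab1 was 519, 510 and 576 RPKM against 425, 395, 505 and 438 RPKM (1.22-fold, log2 difference 0.28 ± 0.09, adjusted p = 0.0231, limma). The highest vehicle sample (sample 3) lay just under the lowest combination sample in both genes. Hspa8, the constitutive HSP70, was 379, 532 and 524 RPKM against 399, 330, 468 and 426 RPKM, with overlapping groups and a log2 difference of 0.23 (interval -0.07 to 0.54). Neither gene of the mitochondrial pair passed. Hspd1 was 33.4, 44.9 and 40.6 RPKM against 40.7, 43, 42.5 and 48.8 RPKM (log2 difference -0.15, interval -0.39 to 0.09), and Hspe1 was 31, 37.9 and 37.6 RPKM against 34.7, 36.3, 38.2 and 37 RPKM (log2 difference -0.04, interval -0.21 to 0.12).

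The 6 members past the threshold were all higher with the combination, and 6 members had groups that did not overlap. Of the 9737 genes tested, 43.3% passed in either direction and 48.8% had separate groups, so that 6 of 10 is not far from the background. Of all genes past the threshold 1707 were higher and 2508 lower. The median log2 difference was 0.46 over the members, 1.11 over the 6 inducible ones and -0.05 over all genes. Both near-identical HSP70 copies enter these counts and medians as separate members, as they do in the other comparisons. All calls of Hspa1a, Hspa1b, Hsph1, Dnajb1 and Hsp90aa1 held without any single sample. Hsp90ab1 lost its call without vehicle sample 1, vehicle sample 2 or combination sample 3 (adjusted p = 0.0528, 0.0672 and 0.102, limma). Without combination sample 1 the log2 differences of Hspa1a and Hspa1b were 4.12 and 4.28, and without combination sample 3 they were 2.74 and 2.92.

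**Figure D3:**
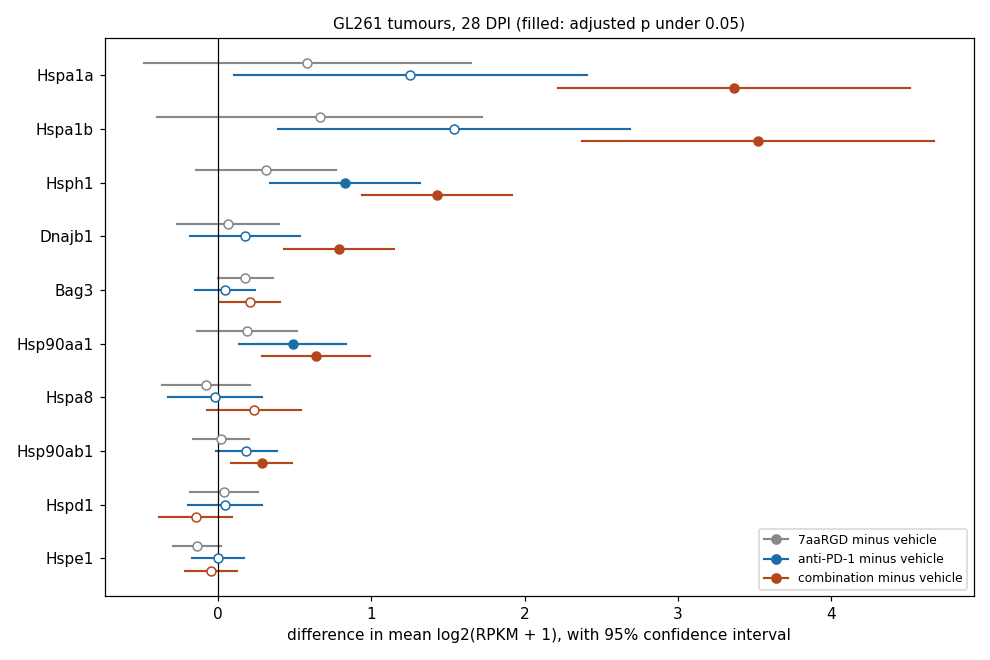
Differences in mean log2(RPKM + 1) from vehicle with 95% confidence intervals for the 10 members in GL261 tumors at 28 DPI treated with 7aaRGD, anti-PD-1 or both; filled points passed an adjusted p of 0.05. With the combination, Hspa1a (3.37) and Hspa1b (3.52) lay furthest from 0, and Hspd1 (-0.15) and Hspe1 (-0.04) had intervals that include 0.

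Anti-PD-1 alone was compared with vehicle to ask what the antibody adds without the peptide. Hsph1 was 6.09, 6.26 and 4.28 RPKM with anti-PD-1, above each vehicle sample (1.77-fold, interval 1.26 to 2.49, adjusted p = 0.0199, limma). Hsp90aa1 was 58, 49 and 39.8 RPKM, with vehicle sample 3 (42.9 RPKM) inside that range (log2 difference 0.49 ± 0.16, adjusted p = 0.0465, limma). Hspa1a was 7.3, 4.76 and 1.45 RPKM and Hspa1b 9.15, 6.22 and 2.33 RPKM, so samples 1 and 2 lay above all vehicle samples and sample 3 among them. Their adjusted p values were 0.107 and 0.0526 (limma). The remaining 6 members had log2 differences between -0.02 and 0.18, and anti-PD-1 sample 3 had the lowest value of its group in 9 of the 10 members.

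These 2 calls of 10 compare with 23.1% of all genes past the adjusted threshold. At an unadjusted p under 0.05 there were 4 members, all higher, against 36.2% of genes, and 1 member had separate groups against 32.4% of genes. The calls depended on single samples. Without anti-PD-1 sample 3, 4 members passed, including Hspa1a (log2 difference 1.75, adjusted p = 0.0427, limma). Without anti-PD-1 sample 1, anti-PD-1 sample 2 or vehicle sample 2, none of the 10 passed, and without vehicle sample 1 or vehicle sample 4, only Hsph1 did.

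7aaRGD alone was compared with vehicle at 28 DPI as it was at 21 DPI. Hspa1a was 2.25, 2.38, 1.76 and 1.93 RPKM with 7aaRGD, a narrow group whose samples lay above 3 of the 4 vehicle samples and below vehicle sample 3. Its log2 difference was 0.58, with an interval from -0.48 to 1.65. The other 9 members had log2 differences between -0.14 and 0.66 and the groups of all 10 overlapped. No member had an unadjusted p under 0.05, which 14.6% of genes had, and the smallest adjusted p of the members was 0.347 (Bag3, limma), with 0.647% of genes past the adjusted threshold.

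The combination was also set against each single treatment. Against 7aaRGD alone, Hspa1a (6.88-fold, interval 3.10 to 15.3, adjusted p = 0.00157, limma), Hspa1b (7.26-fold), Hsph1 (log2 difference 1.11), Dnajb1 (1.65-fold), Hsp90aa1 (1.37-fold) and Hsp90ab1 (1.20-fold) were higher past the threshold, with 36.6% of all genes past it. The first 4 of these held without any single sample, but the log2 differences of Hspa1a and Hspa1b went from 2.78 and 2.86 to 3.54 and 3.62 without combination sample 1 and to 2.15 and 2.26 without combination sample 3. Hsp90aa1 and Hsp90ab1 had adjusted p values of 0.0445 and 0.0376 and lost their calls in 5 and 6 of the 7 fits that left out a sample (limma). Hspa8 had a log2 difference of 0.31 and an adjusted p of 0.103. Against anti-PD-1 alone, no member passed the adjusted threshold, as 0.0411% of all genes did. Hspa1a (log2 difference 2.11, interval 0.88 to 3.34), Hspa1b (1.99, interval 0.76 to 3.21), Dnajb1 (0.61, interval 0.23 to 1.00) and Hsph1 (0.60, interval 0.07 to 1.13) had unadjusted p values under 0.05, against 15% of genes, at adjusted p values from 0.112 to 0.273 (limma). The groups of all 10 overlapped, and combination sample 1 lay within the anti-PD-1 range in each cytosolic member and below it in Hspd1 and Hspe1.

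Whether the peptide acts differently with the antibody than without it was tested by the interaction term, the difference between the 2 effects of 7aaRGD. No member passed the adjusted threshold and 0% of 9737 genes did (limma). Dnajb1 was the 1 member at an unadjusted p under 0.05 (0.55 on the log2 scale, interval 0.04 to 1.05, adjusted p = 0.599, limma), against 794 genes (8.15%). The interaction of Hspa1a was 1.53 with an interval from -0.10 to 3.15. A departure of the combination from the sum of both single effects was not detectable in these samples.

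The other chaperone lists at 28 DPI went different ways. Against vehicle, 43.3% of all genes passed with the combination and 23.1% with anti-PD-1 alone, in either direction. All 13 ER chaperones rose with the combination against vehicle, and 10 of 13 with anti-PD-1 alone. Hspa5 (BiP, the HSP70 of the ER) was 270 ± 50.6 RPKM with the combination (SD, n = 3) and 135 ± 22.3 RPKM with vehicle (SD, n = 4), and Hyou1, Pdia6 and Pdia4 had the other largest differences. The summed ER list was 1016 to 1312 RPKM in vehicle samples, 1702 to 1769 RPKM with anti-PD-1 and 1768 to 1985 RPKM with the combination, and neither treated group overlapped with vehicle. With the combination against vehicle, the HSP70 partner list was divided, with 4 higher and 5 lower of 20 and Dnaja1 the furthest (9.31 ± 1.6 against 5.09 ± 0.746 RPKM). Of 15 HSP90 co-chaperones 5 rose and 2 fell. Chordc1 rose from 2.47 ± 0.493 to 4.82 ± 0.849 RPKM, while Fkbp5, an HSP90 partner that glucocorticoids induce, fell from 63.5 ± 22.1 to 6.75 ± 1.5 RPKM. Hsf1 rose from 3.6 ± 0.476 to 4.74 ± 0.417 RPKM as the 1 call among 3 heat shock factor genes. Of 12 chaperonin and prefoldin genes none rose and Cct2, Tcp1 and Pfdn5 fell, as the same 3 genes did with anti-PD-1 alone. Of 4 small heat shock proteins 1 rose and 2 fell, and of 12 other heat shock genes 1 (Gadd45b) rose and 2 (Sqstm1 and the mitochondrial HSP70 gene Hspa9) fell. With anti-PD-1 alone, 5 of the 20 HSP70 partners rose and 2 fell, and 2 of the 15 HSP90 co-chaperones rose and 1 fell. In that comparison 1 of 3 heat shock factor genes rose, while 1 small heat shock protein and 1 other heat shock gene fell.

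Markers of other cells and of acute activation moved in the same samples. Of 19 immediate early genes, 8 rose and 1 fell with the combination against vehicle, Egr2 the most (35.7 ± 7.37 against 10.6 ± 3.97 RPKM), and their summed level was 1729 to 2231 RPKM against 1464 to 1850 RPKM. Of 7 NK and T cell markers tested, 6 rose with the combination and none passed with anti-PD-1 alone. The NK and T cell list summed to 33.5, 98.4 and 100.4 RPKM in combination samples 1, 2 and 3 and to 63.7, 78.5 and 4.37 RPKM in anti-PD-1 samples 1, 2 and 3, against 4.75 to 14.2 RPKM with vehicle. Combination sample 1 and anti-PD-1 sample 3 were the lowest of their groups in that list and in 9 members each. In immediate early sums, combination sample 1 was the highest of its group (2231 RPKM) and anti-PD-1 sample 3 the lowest (1323 RPKM). ER sums of combination samples 1, 2 and 3 were 1768, 1872 and 1985 RPKM, rising in the order of Hspa1a. At 21 DPI the orders in the NK and T cell list differed from those of the members. 7aaRGD sample 1 was highest in that list (73.6 RPKM) and sample 2 in all 10 members. 7aaRAE sample 1 was lowest in that list (11.4 RPKM) and highest in 6 members. Immediate early sums of 7aaRGD samples 1, 2 and 3 (4321, 4899 and 4137 RPKM) had the order of the members. So did their ER sums (1927, 2064 and 1842 RPKM). 7aaRAE sample 3 had the highest immediate early sum of its group (4753 RPKM) and was lowest in 8 members. At 28 DPI, Cd3e, Cd3d, Cd3g, Cd8a and Klre1 had group means under 0.1 RPKM with vehicle and with 7aaRGD alone. With the combination 7 of 12 monocyte markers and 7 of 12 microglia markers rose, 1 of 10 neutrophil markers rose and 1 fell, and 2 of 9 oligodendrocyte-lineage and glioma markers rose and 4 fell. With anti-PD-1 alone, 7 of 12 monocyte markers, 3 of 12 microglia markers and 1 of 10 neutrophil markers rose. In that comparison 2 of 9 oligodendrocyte-lineage and glioma markers rose and 4 fell, and 3 of 19 immediate early genes rose. The summed microglia list was 2692 to 2889 RPKM with the combination against 1775 to 2479 RPKM with vehicle, and the summed monocyte list was 820 to 1232 RPKM against 535 to 902 RPKM. The part of these cells and of the immediate early response in the chaperone differences was not tested.

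The U87-MG experiment asks the peptide question for a human tumor in mice without mature T cells. Hspa1a was 5.39, 0.62 and 2.62 RPKM with vehicle, 2.54, 2.75 and 3.64 RPKM with 7aaRGD and 6.52, 1.27 and 2.87 RPKM with 7aaRAE, so the vehicle group alone spanned nearly the whole range. Hsph1 was 4.59, 3.85 and 4.89 RPKM with vehicle, 4.47, 4.18 and 6.91 RPKM with 7aaRGD and 4.58, 3.41 and 4.07 RPKM with 7aaRAE. Hspa8 lay between 214 and 296 RPKM in all 9 samples. Of the 10 members, 7 had a higher and 3 a lower mean with 7aaRGD than with vehicle, with log2 differences from -0.06 to 0.24.

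No member had an unadjusted p under 0.05 in any of the 3 U87-MG comparisons, where 364 of 9665 genes (3.77%) did for 7aaRGD against vehicle, 7.72% for 7aaRAE against vehicle and 327 genes (3.38%) for 7aaRGD against 7aaRAE. The shares past the adjusted threshold were 0%, 0.0103% and 0% (limma). The intervals of the 2 HSP70 copies were wide, from 0.527-fold to 2.64-fold for Hspa1a and from 0.401-fold to 2.86-fold for Hspa1b with 7aaRGD against vehicle. They were narrower for Hspa8 (0.826-fold to 1.22-fold) and Hspd1 (0.893-fold to 1.15-fold). Between the peptides the log2 differences ran from -0.13 (Hsp90aa1) to 0.28 (Hsph1). None of the partner lists held a gene past the adjusted threshold in this table. Immediate early genes were higher with either peptide at an unadjusted p under 0.05 for 5 and 6 of 19 genes. Whether the effect of 7aaRGD differs between the GL261 and U87-MG tumors was not tested, since tests were run only within a table.

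**Figure D4:**
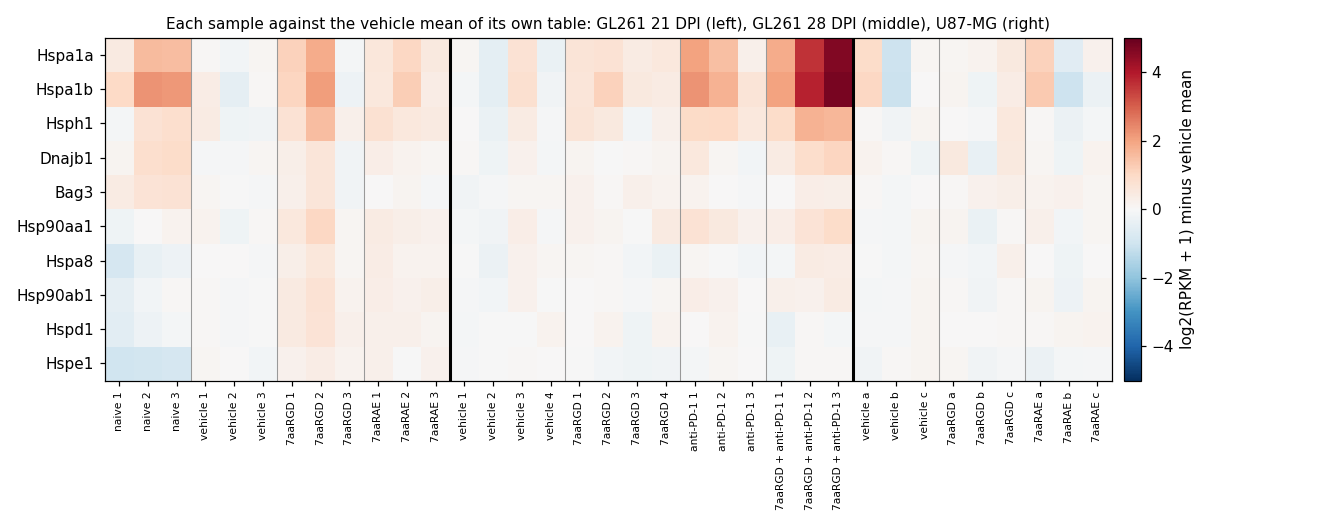
Log2(RPKM + 1) of the 10 members in each of the 35 samples minus the vehicle mean of the same table (color scale from -5 to 5), with thick lines between tables and thin lines between groups. The darkest cells are Hspa1a and Hspa1b in combination samples 2 and 3 at 28 DPI, and the rows of Hspd1 and Hspe1 are pale in the 28 DPI table.

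The balance between inducible and constitutive forms was read as a share within each sample, which does not depend on its scaling. Hspa1a and Hspa1b together made up 5.64 to 9.70% of the summed RPKM of Hspa1a, Hspa1b and Hspa8 in naive brain. Hspa2, another cytosolic HSP70 gene that is not a member, was left out of the sum, and its group means were 1.31 to 7.17 RPKM. Reads dropped from the 2 near-identical copies would make these shares too low. That share was 1.37 to 2.16% in vehicle tumors at 21 DPI, 1.49 to 5.39% with 7aaRGD and 2.8 ± 0.987% (SD, n = 3) with 7aaRAE. At 28 DPI it was 0.308 to 1.09% with vehicle, 1.03 to 1.48% with 7aaRGD, 1.02 to 3.72% with anti-PD-1 and 3.58 to 16.8% with the combination, where the 3 samples had 3.58, 9.19 and 16.8%. In U87-MG tumors it was 0.752 to 5.22% with vehicle, 2.45 to 2.80% with 7aaRGD and 1.14 to 6.11% with 7aaRAE.

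The HSP90 pair was steadier. Hsp90aa1 made up 10.4 to 11.2% of the RPKM of the 2 cytosolic HSP90 genes in naive brain and 8.66 to 11.9% in all tumors at 21 DPI. At 28 DPI its share was 7.04 to 7.82% with vehicle, 7.43 to 9.17% with 7aaRGD, 8.19 to 9.53% with anti-PD-1 and 7.76 to 10.2% with the combination, and it was 9.92 to 12% in U87-MG tumors. In the table at 28 DPI each anti-PD-1 sample lay above each vehicle sample in this share, while combination sample 1 lay within the vehicle range. These shares were set side by side and not tested.

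**Figure D5:**
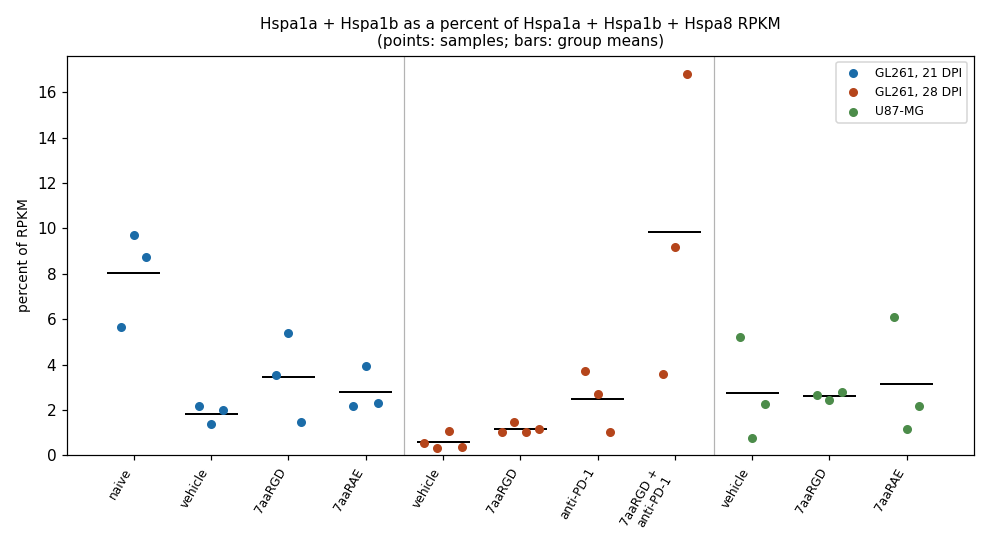
Hspa1a plus Hspa1b as a percent of Hspa1a, Hspa1b and Hspa8 RPKM in each sample (points) with group means (bars) for the 11 groups. Naive brain (5.64 to 9.70%) and the combination at 28 DPI (3.58 to 16.8%) hold the highest group means, and vehicle at 28 DPI holds the lowest (0.308 to 1.09%).

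Within groups most cytosolic members varied together. After each group's mean was removed from log2(RPKM + 1), Hspa1a had a Pearson r of 0.97 with Hspa1b and of 0.73 with Hsph1 over the 35 samples. Among genes with at least 5 RPKM on average in each table, the 5 most like Hspa1a were Hsp90aa1 (r = 0.74), Hspa8 (0.71), Dnajb1 (0.70), Hsp90ab1 (0.66) and Bag3 (0.66), which are all members. The mitochondrial genes were further down, with Hspd1 (0.45) at rank 94 and Hspe1 (0.09) at rank 1680 of 5402 genes. The genes most like Hspa8 were Dnaja1 (0.82) and Stip1 (0.81), which are its cofactors, Ahsa1 (0.78), which activates HSP90, Tfg (0.76), a protein of ER exit sites, and Hsp90ab1 (0.74), while the member Hsph1 had an r of 0.88 below that level filter. The values of a sample share 1 library and 1 sort, and the samples with strong deviations, such as 7aaRGD sample 2 at 21 DPI and combination sample 3 at 28 DPI, enter every one of these correlations, which are given as a description.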

How the data were processed

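CD11b+ cells of 35 samples in 3 tables were profiled by RNA sequencing. Reads were trimmed with Trimmomatic, aligned to mm10 with STAR and counted with HTSeq 0.11.1, per the labels' processing notes and the study's methods, and the authors deposited normalized values whose unit is not given in the sources used here. They were read as RPKM with an added constant of 2, because rows without signal hold exactly 2 and the remainder times exonic length sums to nearly the same total in each sample. Between 6 and 6.8% of the values of a table lay under that constant and were set to 0 RPKM. The RPKM scale of the deposited values is therefore inferred. The constant was subtracted here, and the names were matched to the GENCODE mouse annotation (98.8% of 54513 rows). After group means were removed, log2 values at 21 and 28 DPI in GL261 spanned 7 of 8 and 9 of 10 dimensions (U87-MG 6 of 6), so 1 degree of freedom is counted that these values no longer hold, and the p-values of both GL261 tables are somewhat too small.

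Tests ran on protein-coding genes whose average over the fitted samples reached 1 RPKM, as log2(RPKM + 1) with limma 3.58.1 (empirical Bayes with a trend, Benjamini-Hochberg adjustment, threshold 0.05). Other pseudocounts, filters, scalings and sample sets were tried. Tumor groups of a table were fitted together, and naive against vehicle alone. The script was tested on simulated data. No 2 columns were identical. With no count data, no count model was used.

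The members and gene lists were chosen with earlier results of these data known. All 10 members are named. Of other lists, counts are given with up to 4 genes of the largest difference among those past the threshold (or at an unadjusted p under 0.05 where none passed) whose groups do not overlap. Genes most like Hspa1a and Hspa8 are the 5 with the highest r among genes of at least 5 RPKM in each table. Replicate numbers were not used to pair samples in the main fits. Of same-numbered tumor pairs, 1 of 9 at 21 DPI and 3 of 19 at 28 DPI correlated above 0.1. Both GL261 tables lack 1 dimension within groups, so these correlations cannot tell whether the numbers once marked pairs or a batch.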

Additional observations from a re-analysis of the deposited data

How the results depend on the processing

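Each comparison was repeated with pseudocounts of 0.1 and 5, no filter, a filter of 5 RPKM, median-of-ratios scaling, quantile normalization, all named rows, only the groups compared, the naive samples added (21 DPI peptides), an adjusted p under 0.1 and each sample left out. Single members were followed only where their unadjusted p was under 0.05 in the main fit (limma), with both HSP70 copies where 1 reached it. No member was therefore followed for 7aaRAE against vehicle, for 7aaRGD against vehicle at 28 DPI or in U87-MG. None of the followed differences changed direction. Of their values under these settings, 596 kept their side of the threshold, 38 lost a call and 13 gained one. The number of members past the threshold kept within 1.5 times its value in 12 of 13 comparisons. Only 3 of these held any call. The count was 7 for tumor against naive brain (5 to 8 over all settings) and 6 for the combination against vehicle (5 to 8). It was 6 for the combination against 7aaRGD (4 to 7). In the others no member passed in any fit. The exception was anti-PD-1 against vehicle, where 2 members passed, 1 without the filter, 0 with the replicate number as a block, and 0 to 4 when a sample was left out. The cause was not tested. Hsph1 could not be tested at 28 DPI under the filter of 5 RPKM. With the replicate block 7 members passed for tumor against naive brain, 6 for the combination against vehicle and 4 against 7aaRGD, where Hsp90aa1 and Hsp90ab1 lost their calls. Correlations of same-numbered deviations ran from -0.77 to 0.12 at 21 DPI and from -0.50 to 0.37 at 28 DPI. With 1 dimension lost in both GL261 tables, they cannot tell whether the numbers once marked pairs. No paired analysis was possible for U87-MG because its columns carry no numbers. Read depth is unknown, which leaves the precision of values near 1 RPKM, such as Hspa1a in vehicle samples at 28 DPI, open to counting error that cannot be stated. With a pseudocount of 0.1 and 5 the log2 difference of Hspa1a for the combination ran from 2.10 to 4.21 and that of Hspa1b from 2.26 to 4.31.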
